A study of Mus musculus with 6 samples.

Results

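Immunoglobulin genes and plasma cell genes were examined in RNA-seq counts from the lacrimal gland, the exocrine gland that makes the watery part of tears. Members were all genes that GENCODE M21 gives an immunoglobulin biotype (constant, variable, diversity and joining segments of the heavy, kappa and lambda chains, pseudogenes included), together with Jchain, Mzb1, Pou2af1, Prdm1, Irf4 and Slamf7. They came to 435 of the 50686 genes in the table, 429 of them immunoglobulin genes and 6 plasma cell genes. The 6 libraries were from 3 Eda-/- glands, titled Tabby in the labels, and 3 wild-type (WT) glands, titled Blacky. All came from mice 13 weeks old with the strain label C57BL/6, and whole glands were used, so that epithelium, stroma and immune cells were read together. Ectodysplasin A, the product of Eda, is a TNF-like ligand needed for hair, teeth and several exocrine glands to form, and Tabby is the usual name of a mouse line that lacks it.

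Plasma cells are the antibody-secreting end stage of the B cell lineage. In the lacrimal gland those making IgA sit in the stroma between acini. They assemble IgA into polymers with the J chain (Jchain), and the epithelium carries the polymer into tears with the polymeric immunoglobulin receptor (Pigr). Each B cell clone joins its own choice of heavy V, D and J segments and of kappa or lambda V and J segments, so the segments read in a tissue reflect which clones contributed RNA as well as how much.

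The libraries held 12247077, 11894395 and 14480331 counts in Eda-/- 1, 2 and 3, and 14895607, 15700899 and 13670343 counts in WT 1, 2 and 3. Eda itself had 2, 0 and 0 counts in the Eda-/- libraries, against 41, 48 and 42 in the WT libraries, as the labels have it. Immunoglobulin genes took 0.0380%, 0.0152% and 0.0242% of all counts in Eda-/- 1, 2 and 3, and 0.00620%, 0.0217% and 0.00541% in WT 1, 2 and 3. WT 2 stood apart from the other WT libraries for Igha, Jchain and above all the lambda chain, and results that rest on it are given with and without it. Of the 435 members, 192 had 0 counts in every library and 107 reached 10 counts over all 6. The 161 pseudogenes had 36 counts in all.

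By constant region counts, antibody RNA in these glands was mostly IgA (87.9% or more of heavy constant counts in each library), with mostly kappa light chains in all libraries but WT 2. Kappa constant and variable counts were higher in every Eda-/- library than in any WT library, 5.26-fold and 4.25-fold by the means, while heavy constant counts, nearly all Igha, were 3.02-fold higher by the means with groups that overlapped. As log2 ratios of means these were 2.40, 2.09 and 1.59. Without WT 2 they lay closer together, at 2.86, 2.29 and 2.56. Lambda chains made up a smaller share of light chains in every Eda-/- library. The heavy segments Ighv9-4 and Ighv6-3 rose, and Slamf7 fell.

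The edgeR test (quasi-likelihood fit, Benjamini-Hochberg adjustment over the 13178 genes tested, threshold 0.05) was run on genes that passed a filter on low counts, which 15 members did and 420 did not. These 3 were the tested members that passed. Over all tested genes 13.1% passed, 6.21% higher and 6.9% lower. A further 4 members had an unadjusted p under 0.05. The groups did not overlap for 6 tested members, 4 higher and 2 lower in Eda-/- libraries, where 32.1% of all tested genes did not overlap, 15.9% higher and 16.2% lower. Among these 15 are segments let through the filter only by the group in which they were high, so their count is a description. Left out in turn, the libraries gave 5 to 10 members higher and 0 to 1 lower, as groups of 2 let 23 to 40 members past the filter.

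Igha, the constant region of IgA and the member with the most counts, lay on chromosome 12 at 113254830 to 113260236 (GRCm38). It had 205, 81.4 and 133 CPM (library-scaled counts, with TMM factors) in Eda-/- 1, 2 and 3, and 24.2, 90.1 and 19.2 CPM in WT 1, 2 and 3. WT 2 exceeded Eda-/- 2, so the groups overlapped. Means were 139.8 ± 62.1 CPM in Eda-/- and 44.5 ± 39.6 CPM in WT (SD, n = 3 each), and the log2 fold change was 1.65 ± 0.80 (SE; edgeR adjusted p = 0.288). Without WT 2 the log2 fold change was 2.69 with an adjusted p of 0.0983. The limma-voom test, which works on log values, gave an adjusted p of 0.0242. In bulk glands, fewer cells of a type and less RNA per cell cannot be told apart, and this holds for every member below.

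Igkc, the kappa constant region (chromosome 6, 70726435 to 70726966), had 62.3, 23.1 and 42.5 CPM in Eda-/- 1, 2 and 3, and 5.74, 12.5 and 6.03 CPM in WT 1, 2 and 3. Every Eda-/- library was above every WT library. Means were 42.6 ± 19.6 CPM in Eda-/- and 8.10 ± 3.84 CPM in WT (SD, n = 3 each). The log2 fold change was 2.39 ± 0.55 (SE), with an edgeR p of 0.0110 that adjusted to 0.0710 over all genes. The call turned on the method, since DESeq2 gave an adjusted p of 0.000444, limma-voom 0.00233 and edgeR on library totals 0.0494. Igkc shared no 31-base word with any other gene.

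Jchain, which links IgA into polymers, had 50.8, 21.6 and 40.1 CPM in Eda-/- 1, 2 and 3, and 6.30, 27.7 and 5.58 CPM in WT 1, 2 and 3. It followed the order of Igha, with WT 2 again above Eda-/- 2. The log2 fold change was 1.50 ± 0.79 (SE; edgeR adjusted p = 0.328; 2.67 and 0.0738 without WT 2), and limma-voom gave an adjusted p of 0.0320. Within each library the Jchain to Igha count ratio was 0.248, 0.266 and 0.302 in Eda-/- 1, 2 and 3, and 0.260, 0.307 and 0.291 in WT 1, 2 and 3. The highest of the 6 ratios was 1.24 times the lowest, and both groups covered nearly the same range.

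Ighm, the constant region of IgM, had a lower mean in Eda-/-. It had 17, 9 and 16 counts in Eda-/- 1, 2 and 3, and 28, 31 and 33 counts in WT 1, 2 and 3, with no overlap between the groups. Means were 1.19 ± 0.324 CPM in Eda-/- and 1.90 ± 0.196 CPM in WT (SD, n = 3 each), a log2 fold change of −0.66 ± 0.29 (SE; edgeR adjusted p = 0.151; −0.94 and 0.0250 on library totals). The summed level of 15 B cell markers was also lower in every Eda-/- library, at 6.86 to 7.25 CPM in Eda-/- and 7.65 to 8.47 CPM in WT, with Cd79a and Ms4a1 at or near 0 in both, and their part in the Ighm difference was not tested. Other heavy chain classes were sparse. Ighg2b, an IgG constant region, had 19, 2 and 6 counts in Eda-/- 1, 2 and 3, and 2, 16 and 6 in WT 1, 2 and 3, and Ighd, Ighg1, Ighg2c, Ighg3 and Ighe had at most 3 counts in any library. Igha made up 98.3%, 98.8% and 98.6% of heavy constant counts in Eda-/- 1, 2 and 3, and 91.9%, 96.8% and 87.9% in WT 1, 2 and 3. The Igha share was thus higher in every Eda-/- library. The means differed by 6.31 percentage points (two-sided exact permutation p = 0.1, the smallest that 3 against 3 allows; 0.15 adjusted over 3 shares).

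**Figure D1:**
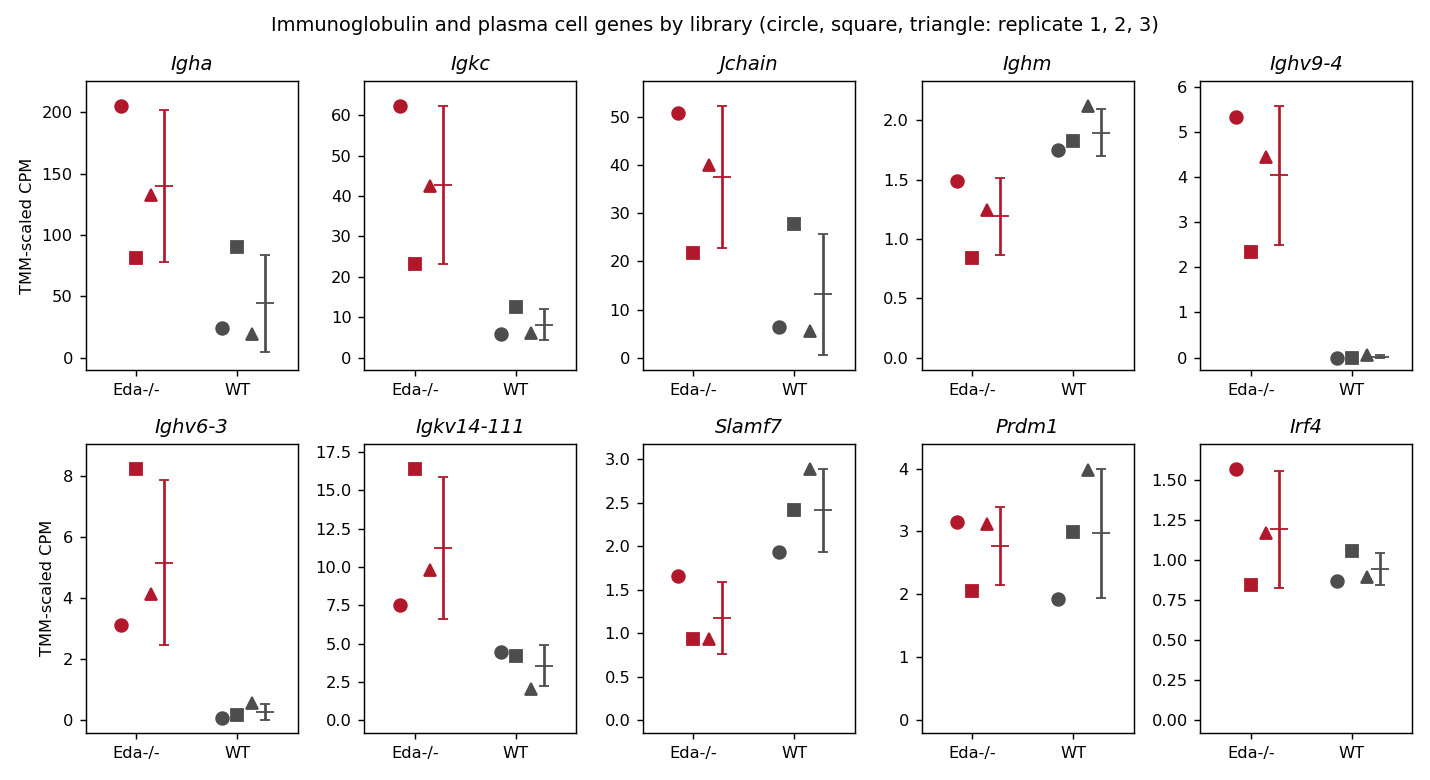
TMM-scaled CPM of 10 immunoglobulin and plasma cell genes, each on its own axis, with Eda-/- libraries left and WT libraries right. Points are libraries (circle, square and triangle for replicates 1, 2 and 3), and the bar beside each group is mean ± SD (n = 3). WT replicate 2 sits among the Eda-/- libraries for Igha and Jchain but below them for Igkc, while Ighm and Slamf7 are lower in all Eda-/- libraries.

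Counts were summed by chain to set constant and variable segments beside each other. Kappa variable segments summed to 67.1, 35.1 and 53.6 CPM in Eda-/- 1, 2 and 3, and 12.2, 15.5 and 9.05 CPM in WT 1, 2 and 3, or 4.25-fold higher by the means with no overlap, beside 5.26-fold for the kappa constant region. The log2 ratios of means were 2.09 for kappa variable (2.29 without WT 2) and 2.40 for kappa constant (2.86 without WT 2). Heavy variable segments summed to 60.4, 25.1 and 38.7 CPM in Eda-/- 1, 2 and 3, and 8.11, 29.2 and 8.41 CPM in WT 1, 2 and 3. As for Igha, WT 2 fell inside the Eda-/- range, and the log2 ratio of means was 1.44 (2.33 without WT 2). Heavy constant genes had a log2 ratio of 1.59 (2.56 without WT 2), but −0.25 when the leading gene of each library, Igha in all 6, was left out. Joining segments carried few counts, with kappa J segments at 16, 7 and 13 counts in Eda-/- 1, 2 and 3, and 0, 4 and 4 in WT 1, 2 and 3. Diversity segments had 3 counts in all.

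**Figure D2:**
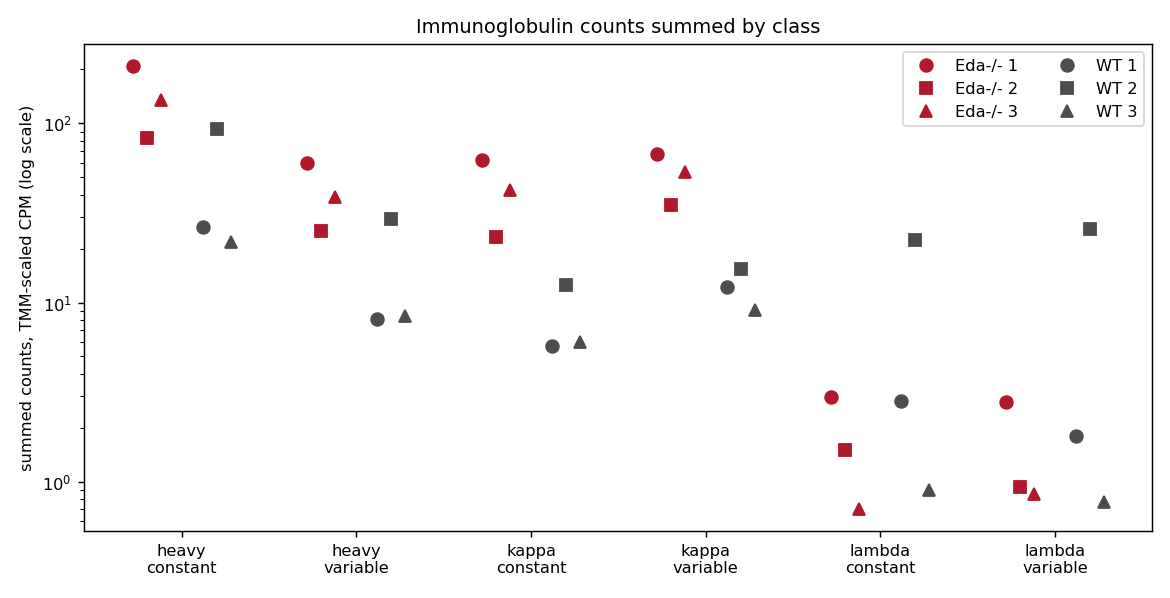
Summed TMM-scaled CPM per library (log axis) for heavy, kappa and lambda constant and variable segments, with Eda-/- libraries left of WT libraries in each class. The groups are apart for both kappa classes and overlap for heavy and lambda classes, where WT 2 (grey square) is the highest WT library.

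Lambda chain counts had another pattern. Lambda constant genes together had 34, 16 and 9 counts in Eda-/- 1, 2 and 3, and 45, 379 and 14 in WT 1, 2 and 3. WT 2 held most of them and the other 5 libraries overlapped. The log2 ratio of mean sums was −2.33 for lambda constant and −2.62 for lambda variable genes, but −0.10 and 0.25 without WT 2. Iglc3, a lambda constant region, had 5, 7 and 3 counts in Eda-/- 1, 2 and 3, and 35, 353 and 1 in WT 1, 2 and 3. It led the lambda constant genes in WT 1 (77.8%) and WT 2 (93.1%) but not in WT 3, where Iglc1 led with 9 of 14 counts. Iglc1 had 19, 3 and 4 counts in Eda-/- 1, 2 and 3, and 6, 20 and 9 in WT 1, 2 and 3. Iglc3 shared 40.8% of its 31-base words with other genes, mostly Iglc2, so the split between these genes is uncertain.

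As a share of kappa and lambda constant counts, not corrected for gene length, lambda made up 4.55% (exact binomial 95% interval 3.17 to 6.30), 6.08% (3.52 to 9.69) and 1.62% (0.745 to 3.06) in Eda-/- 1, 2 and 3. In WT 1, 2 and 3 it made up 32.8% (25.1 to 41.4), 64.0% (60.0 to 67.9) and 13.0% (7.27 to 20.8). Every WT library was above every Eda-/- library, also without WT 2, and the WT libraries differed among themselves beyond their counting intervals, which cover counting error only. The difference of means was −32.5 percentage points (two-sided exact permutation p = 0.1, the smallest possible; 0.15 adjusted over 3 shares), and −18.8 without WT 2. Set against Igha, kappa and lambda constant counts together gave ratios of 0.318, 0.303 and 0.325 in Eda-/- 1, 2 and 3, and 0.353, 0.386 and 0.361 in WT 1, 2 and 3. The ratio was lower in every Eda-/- library than in any WT library, though all 6 lay within 1.28-fold of each other. The ratio of Igkc alone to Igha ran as low as 0.139 in WT 2.

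**Figure D3:**
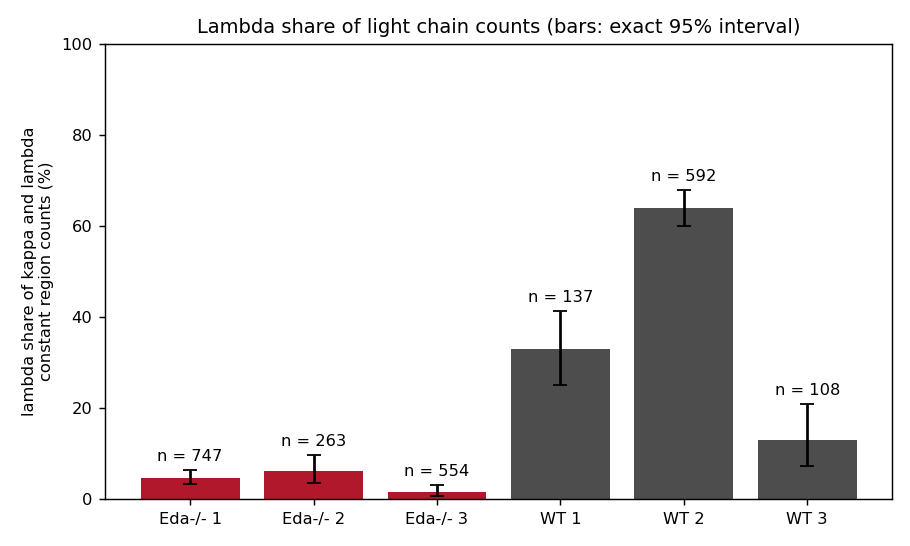
Lambda share of kappa and lambda constant region counts (percent) in each library, Eda-/- left and WT right, with exact 95% binomial intervals and the number of counts above each bar. Shares were 1.62% to 6.08% in Eda-/- libraries and 13.0% to 64.0% in WT libraries.

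Variable segments showed which rearrangements contributed. The last 90 coding bases of the reference segments on which the results turn are given below, 5′ to 3′ on the coding strand, from GENCODE M21 transcripts (GRCm38). Capitals mark the codon of the conserved cysteine, the last in-frame cysteine codon of the segment, ahead of its join with D or J. They are reference sequences and not those of the rearranged genes in these mice.
Ighv9-4, chr12:114299961-114300050, minus strand: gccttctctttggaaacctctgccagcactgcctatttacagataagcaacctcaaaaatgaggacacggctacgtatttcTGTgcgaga
Ighv6-3, chr12:114391712-114391801, minus strand: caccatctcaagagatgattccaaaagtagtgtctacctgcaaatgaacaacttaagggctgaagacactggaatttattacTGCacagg
Ighv3-4, chr12:114253617-114253706, minus strand: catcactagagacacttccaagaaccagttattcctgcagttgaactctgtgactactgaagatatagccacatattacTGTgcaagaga
Igkv14-111, chr6:68256780-68256869, plus strand: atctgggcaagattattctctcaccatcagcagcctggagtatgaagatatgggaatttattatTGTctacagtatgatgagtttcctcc
Iglv1, chr16:19085017-19085106, minus strand: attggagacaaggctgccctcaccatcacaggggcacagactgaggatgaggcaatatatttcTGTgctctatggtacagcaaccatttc

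Ighv9-4 had 61, 25 and 57 counts in Eda-/- 1, 2 and 3, and 0, 0 and 1 in WT 1, 2 and 3. All 3 Eda-/- libraries used it and WT libraries all but lacked it. Scaled for library size, Eda-/- held 199 times the WT counts (95% interval of counting error 35.1 to 7912), and the fitted log2 fold change was 7.11 ± 0.62 (SE; edgeR adjusted p = 1.81e-06). Ighv9-4 made up 8.82%, 9.33% and 11.5% of heavy variable counts in Eda-/- 1, 2 and 3, and 0%, 0% and 0.763% in WT 1, 2 and 3, so its difference was also seen relative to the other heavy segments. It shared 29.6% of its 31-base words with other genes, mostly Ighv9-3.

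Ighv6-3 had 36, 88 and 53 counts in Eda-/- 1, 2 and 3, and 1, 3 and 9 in WT 1, 2 and 3. The groups were far apart. Its mean was 5.17 ± 2.71 CPM in Eda-/- and 0.272 ± 0.271 CPM in WT (SD, n = 3 each), a log2 fold change of 4.21 ± 0.62 (SE; edgeR adjusted p = 0.00415). It was the leading heavy segment of Eda-/- 2, with 32.8% of heavy variable counts there. It shared 31.6% of its words, mostly with Ighv6-6. Both Ighv9-4 and Ighv6-3 passed the filter through their Eda-/- counts. Both passed the test whichever library was left out, but these fits share libraries and the same filter. Their p-values are therefore given as descriptions. At a minimum count of 30, Ighv9-4 no longer passed the filter.

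Ighv3-4 had 1, 0 and 0 counts in Eda-/- 1, 2 and 3, and 24, 254 and 1 in WT 1, 2 and 3. It was high in WT 2, where it held 51.1% of heavy variable counts (46.6 to 55.6), lower in WT 1 and near 0 in WT 3. It did not pass the filter and was not tested with edgeR. Iglv1, a lambda variable segment, had 29, 5 and 9 counts in Eda-/- 1, 2 and 3, and 28, 433 and 8 in WT 1, 2 and 3. Apart from WT 2 the libraries overlapped, and the log2 fold change of −2.92 ± 1.93 (SE; edgeR adjusted p = 0.428) became 0.13 without WT 2. Iglj3, a lambda joining segment, had 13 counts in WT 2 and 0 in the other 5 libraries.

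Igkv14-111 was the leading kappa segment in 5 of the 6 libraries. It had 86, 175 and 126 counts in Eda-/- 1, 2 and 3, and 72, 71 and 32 in WT 1, 2 and 3, with no overlap. Means were 11.2 ± 4.61 CPM in Eda-/- and 3.57 ± 1.32 CPM in WT (SD, n = 3 each). The log2 fold change was 1.64 ± 0.41 (SE), with an adjusted p of 0.0637 by edgeR and 2.39e-06 by DESeq2. With the replicate number as a block the edgeR adjusted p was 0.0187, but these numbers did not pair the libraries. The share of Igkv14-111 in kappa variable counts did not follow the genotype, at 11.2%, 46.7% and 18.3% in Eda-/- 1, 2 and 3, and 36.9%, 27.0% and 22.7% in WT 1, 2 and 3. Nor did it follow Igkc. The ratio of its counts to those of Igkc was highest in WT 1 (0.783) and Eda-/- 2 (0.709) and lowest in Eda-/- 1 (0.121). Igkv10-96, which led in WT 2 with 30.4% of kappa variable counts, had 64, 13 and 32 counts in Eda-/- 1, 2 and 3, and 14, 80 and 0 in WT 1, 2 and 3, and its groups overlapped (log2 fold change 0.71, edgeR adjusted p = 0.790).

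Other abundant segments differed from animal to animal. Ighv8-12 had 62, 0 and 6 counts in Eda-/- 1, 2 and 3, and 0, 1 and 1 in WT 1, 2 and 3. Ighv1-39 had 5, 1 and 85 counts in Eda-/- 1, 2 and 3, and 0, 10 and 0 in WT 1, 2 and 3. Each was abundant in a single Eda-/- library. Igkv4-61 had 33, 59 and 2 counts in Eda-/- 1, 2 and 3, and 0, 1 and 0 in WT 1, 2 and 3, and Igkv8-30 had 29, 0 and 60 in Eda-/- 1, 2 and 3, and 0, 0 and 2 in WT 1, 2 and 3. Igkv3-2 had 48, 0 and 17 counts in Eda-/- 1, 2 and 3, and 3, 0 and 0 in WT 1, 2 and 3. None of the 5 was read in quantity in every library of a group. Igkv6-23 had 51, 5 and 51 counts in Eda-/- 1, 2 and 3, and 1, 4 and 6 in WT 1, 2 and 3, Ighv1-53 had 8, 20 and 34 in Eda-/- 1, 2 and 3, and 0, 9 and 4 in WT 1, 2 and 3, and Ighv1-26 had 35, 8 and 9 in Eda-/- 1, 2 and 3, and 3, 4 and 4 in WT 1, 2 and 3. Ighv1-64 had 25, 12 and 63 counts in Eda-/- 1, 2 and 3, and 0, 39 and 15 in WT 1, 2 and 3 (log2 fold change 1.34, edgeR adjusted p = 0.523). The share of 31-base words held in common with other genes was 72.9% for Ighv1-53, 74.8% for Ighv1-26, 60.0% for Ighv1-64 and 35.2% for Ighv1-39, so the split of reads among such segments is uncertain. The tested segments Igkv1-117 (log2 fold change 1.48, edgeR adjusted p = 0.167) and Ighv2-9-1 (−0.52, 0.564) had groups that overlapped. Of the 173 functional heavy and kappa segments with any count, 134 had a higher mean CPM in Eda-/- and 39 a lower one, beside the summed differences above.

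**Figure D4:**
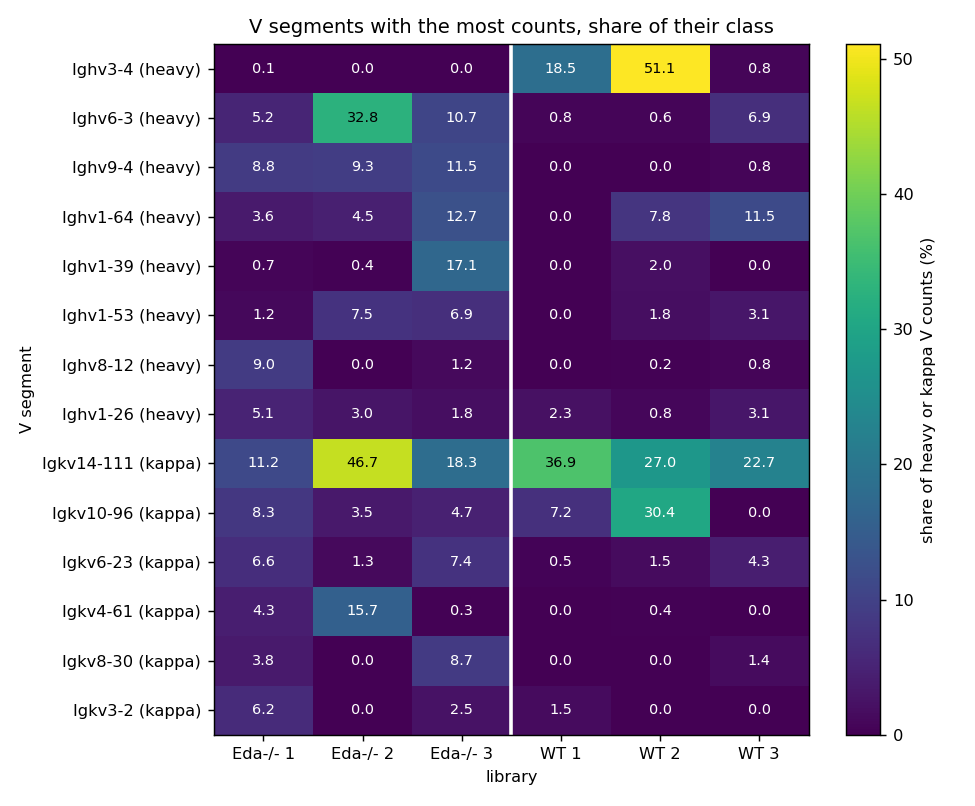
Share of heavy (upper) and kappa (lower) variable counts held by named V segments in each library, Eda-/- libraries before WT libraries. Ighv9-4 is seen in all Eda-/- libraries, Ighv3-4 holds 51.1% of heavy variable counts in WT 2, and Igkv14-111 is used in all 6 libraries.

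The leading heavy segment differed in all 6 libraries. It was Ighv8-12 (8.96% of heavy variable counts), Ighv6-3 (32.8%) and Ighv1-39 (17.1%) in Eda-/- 1, 2 and 3, and Ighv1-22 (23.8%), Ighv3-4 (51.1%) and Ighv1-64 (11.5%) in WT 1, 2 and 3. The mean leading share differed by −9.16 percentage points (two-sided exact permutation p = 0.6), and by 2.0 without WT 2. Only 4 heavy segments had counts in all 6 libraries and 23 had counts in exactly 1, and for kappa segments these numbers were 5 and 23. Of 18 heavy and 19 kappa segments with counts in all 3 Eda-/- libraries, 3 and 1 had counts in 0 WT libraries. Of 9 heavy and 9 kappa segments with counts in all 3 WT libraries, 1 and 0 had counts in 0 Eda-/- libraries. These numbers depend on the V counts of each library, which differed, and were not tested.

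Heavy V segments with at least 1 count numbered 62, 31 and 43 of 113 in Eda-/- 1, 2 and 3, and 25, 38 and 40 in WT 1, 2 and 3. These numbers depend on depth, since heavy V counts were 688, 265 and 495 in Eda-/- 1, 2 and 3, and 128, 492 and 126 in WT 1, 2 and 3. At an equal depth of 126 counts, 38.7, 23.1 and 28.6 segments were expected in Eda-/- 1, 2 and 3, and 24.8, 23.3 and 40.0 in WT 1, 2 and 3. The groups then covered the same range. For kappa at 132 counts the numbers were 35.5, 21.01 and 32.2 in Eda-/- 1, 2 and 3, and 22.7, 23.0 and 35.0 in WT 1, 2 and 3, again overlapping.

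**Figure D5:**
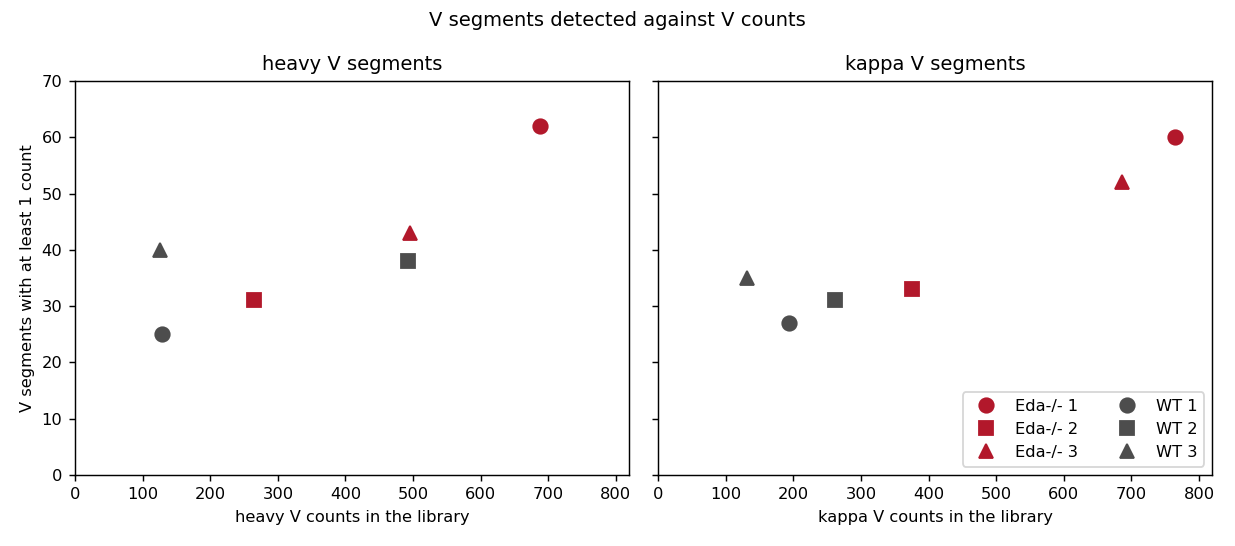
Number of V segments with at least 1 count against the V counts of the library, for heavy (left) and kappa (right) segments, Eda-/- in red and WT in grey. Eda-/- 1, with the most counts, had the most segments (62 heavy, 60 kappa), and WT 3 had 40 heavy segments from 126 counts.

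Of the plasma cell genes without immunoglobulin sequence, Slamf7, a surface receptor of plasma cells that is also found on other immune cells, fell. It had 19, 10 and 12 counts in Eda-/- 1, 2 and 3, and 31, 41 and 45 in WT 1, 2 and 3, with no overlap. Means were 1.18 ± 0.417 CPM in Eda-/- and 2.41 ± 0.478 CPM in WT (SD, n = 3 each), a log2 fold change of −1.03 ± 0.30 (SE; edgeR adjusted p = 0.0318). The call was lost with DESeq2 (adjusted p = 0.158) and without Eda-/- 2 (0.104), Eda-/- 3 (0.124), WT 2 (0.0831) or WT 3 (0.0979). Macrophage markers moved with it. Their summed level was 62.0 to 80.5 CPM in Eda-/- and 124 to 234 CPM in WT, with a median log2 fold change of −1.52. Where 6.9% of all tested genes fell, 6 of 11 fell (3 without Eda-/- 2 or without Eda-/- 3, and 9 without WT 3). Among them were Tyrobp (−1.71, edgeR adjusted p = 0.00391) and Csf1r (−1.01, 0.00591). None of these markers was at 0, and their part in the Slamf7 difference was not tested.

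Prdm1, the transcription factor that drives plasma cell differentiation, had 36, 22 and 40 counts in Eda-/- 1, 2 and 3, and 31, 51 and 62 in WT 1, 2 and 3 (log2 fold change −0.09, edgeR adjusted p = 0.869). Irf4, a transcription factor needed by plasma cells, had 18, 9 and 15 counts in Eda-/- 1, 2 and 3, and 14, 18 and 14 in WT 1, 2 and 3 (0.34, 0.548). The groups overlapped for both genes. Pou2af1, a B cell coactivator, had 13, 4 and 8 counts in Eda-/- 1, 2 and 3, and 5, 12 and 6 in WT 1, 2 and 3. Mzb1, an endoplasmic reticulum cochaperone of antibody-secreting cells, had 3, 3 and 4 counts in Eda-/- 1, 2 and 3, and 4, 6 and 4 in WT 1, 2 and 3. Neither reached the filter, and Mzb1 shared 55.1% of its words with an overlapping gene. Of the plasma cell markers, Jchain thus had 87 or more counts in every library, while Mzb1 and Pou2af1 had few counts in both.

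Other genes of the plasma cell list numbered 14, of which 10 were tested. Among 12 with a DESeq2 p, 5 rose and 0 fell by DESeq2. At an unadjusted p under 0.05, 1 was lower by edgeR and 0 by DESeq2. The lower gene was Sdc1, at 18.1 ± 1.06 CPM in Eda-/- and 20.8 ± 1.67 CPM in WT (SD, n = 3 each). Its log2 fold change was −0.21 (edgeR adjusted p = 0.174). The median log2 fold change of the 10 was 0.30 beside 0.00 over all tested genes. By edgeR 5 of the 10 rose and 0 fell (3 rose without Eda-/- 3), where 6.21% of all tested genes rose and 6.9% fell. Fkbp11, a secretory pathway prolyl isomerase (log2 fold change 0.65, edgeR adjusted p = 0.000152), Creld2, an endoplasmic reticulum stress protein (0.61, 0.000319), Tent5c, which lengthens the poly(A) tails of secretory mRNAs (0.35, 0.00751), Derl3, of endoplasmic reticulum-associated degradation (0.33, 0.0142), and Xbp1, the transcription factor of the unfolded protein response (0.28, 0.0462), were the 5. Xbp1 averaged 406 ± 40.4 CPM in Eda-/- and 335 ± 19.8 CPM in WT (SD, n = 3 each). Of the 6 fits with a library left out, Xbp1 passed in only 2 and Derl3 in 5. Fkbp11, Creld2 and Tent5c passed in all 6. All 5 genes are also expressed by secretory epithelium such as acini. The acinar transcription factor Bhlha15 rose beside them (0.36, 0.00694), the only 1 of 4 tested acinar genes to pass. At an unadjusted p under 0.05 by edgeR, 3 of the 4 were higher and 0 lower. The median log2 fold change of the 4 was 0.23, and the part of acini was not tested. On library totals 2 of the plasma cell list rose and 1 fell. Tnfrsf17, the plasma cell receptor BCMA, had 2, 0 and 1 counts in Eda-/- 1, 2 and 3, and 0, 1 and 1 in WT 1, 2 and 3.

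B cell markers were close to absent. Of 15 listed genes 12 had at most 10 counts in any library, and 3 were tested. By edgeR 0 passed, 0 had an unadjusted p under 0.05, and DESeq2 and limma-voom called 0 as well. The tested genes were Ebf1 (log2 fold change −0.05), Cd37 (−0.15) and Blnk (−0.50), with a median of −0.15. Ms4a1, which encodes CD20, had 0, 0 and 0 counts in Eda-/- 1, 2 and 3, and 0, 3 and 0 in WT 1, 2 and 3. T cell markers summed to 0.858 to 1.12 CPM in Eda-/- and 1.53 to 3.02 CPM in WT, and none of 11 reached the filter.

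Genes for IgA transport and for the homing and survival of plasma cells were read next. Pigr averaged 257 ± 34.0 CPM in Eda-/- and 251 ± 30.4 CPM in WT (SD, n = 3 each; log2 fold change 0.03, edgeR adjusted p = 0.873). Ccl28, the epithelial chemokine that draws IgA plasma cells to glands, averaged 213 ± 26.7 CPM in Eda-/- and 216 ± 18.1 CPM in WT (−0.02, 0.913). Over all tested genes 6.21% rose and 6.9% fell by edgeR. Of 11 tested genes of this list 0 rose (0 at an unadjusted p under 0.05 by edgeR, 0 called by DESeq2). By edgeR 2 fell (1 without Eda-/- 1), and the median was −0.34. The 2 were Vcam1, an endothelial adhesion molecule (−2.06, 0.00655), and its ligand subunit Itga4 (−1.10, 0.00484), both of which macrophages or stroma also express. With each library left out, Vcam1 passed in 4 of 6 fits, Itga4 in all 6 and another listed gene in 1. Of 7 tested Fc receptor genes 4 fell, namely Fcgr3 (−1.11, 0.0128), Fcgr2b (−1.03, 0.0138), Fcer1g (−1.26, 0.0264) and the cytosolic antibody receptor Trim21 (−0.92, 0.0272), and 0 rose at an unadjusted p under 0.05 by edgeR (median −1.03). DESeq2 called 1 of 8 lower and limma-voom 2 of 7. By edgeR 1 was lower without Eda-/- 3 or without WT 3, and 2 without Eda-/- 2 or without WT 2. Fcer1g was also in the macrophage list and is counted among the macrophage markers that fell. Interferon response genes had a median of −1.58, and by edgeR 0 of 14 passed while 5 were lower at an unadjusted p under 0.05. DESeq2 called 6 of 16 lower and limma-voom 0 of 14. Their sum was 23.3 to 35.8 CPM in Eda-/- and 39.3 to 160 CPM in WT, highest in WT 3. By edgeR 9 were lower without WT 1, 1 without WT 2 and 4 without WT 3.

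The number of members called depended on the test. DESeq2, which gave an adjusted p for 76 members, called 15 of them, 14 higher and 1 lower, where it called 7.39% of all genes, 3.64% higher and 3.75% lower. Limma-voom called 6 of the 15 tested members higher and 1 lower, where it called 11.3% of all genes, 5.33% higher and 5.92% lower. The lower call was Ighv3-4 with DESeq2 and Slamf7 with limma-voom. With no filter on low counts edgeR called 36 of 243 members higher and 2 lower, where 6.1% of all genes were called, 2.59% higher and 3.51% lower. These added calls were mostly V segments with few counts.

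Immunoglobulin genes lie in 3 clusters in GRCm38, the heavy locus on chromosome 12 (113254830 to 116000461), the kappa locus on chromosome 6 (67555497 to 70726966) and the lambda locus on chromosome 16 (19061618 to 19260859). Among other tested genes within 2 Mb, 1 rose and 6 fell of 44 at the heavy locus, 5 rose and 1 fell of 42 at the kappa locus, and 8 rose and 1 fell of 55 at the lambda locus, where 6.21% of all tested genes rose and 6.9% fell. These are counts of few genes and were not tested.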

How the data were processed

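Total RNA of 6 lacrimal glands was read after ribosomal RNA removal with a directional kit, per the labels' protocols. The deposited table holds the authors' raw read counts per gene. The submitters' processing notes name STAR, featureCounts, Trimmomatic, bcl2fastq and DESeq2 and build GRCm38.p5. Not given in the sources used here are versions, annotation release, strand setting and how reads mapping to several places were treated, so overlapping genes and near-identical V or constant segments are uncertain. The genes overlapping Igkc, Iglc1, Iglc3 and Iglv1 had at most 3 counts in any library.

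Groups came from the genotype label. Samples within a genotype are biological replicates by the series' own account. No 2 libraries agreed within sampling noise, and 0 columns were unmatched. Of the identifiers 50462 matched GENCODE M21 and 224 did not. Members and lists were chosen with earlier results of these data known.

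The counts went into edgeR 4.0.16 under R 4.3.3 (filterByExpr, minimum count 10, TMM, genotype alone, robust quasi-likelihood fit, two-sided). CPM values were computed from the deposited counts with TMM scaling. The script was first tested on simulated data. Alternatives were DESeq2 1.42.0, limma-voom 3.58.1, other scalings and filters, a replicate block, and each library left out. Summed counts and lists have no test of their own. Exact Clopper-Pearson intervals of 95% cover counting error only. Words of 31 bases were compared between annotated transcripts.

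Genes named were the 6 plasma cell genes, constant genes with at least 10 counts, the 8 heavy, 6 kappa and 3 lambda V segments with the highest mean CPM over all 6 libraries, every member that passed, and up to 4 passing genes of each list, or 3 where none passed. Ighd, the other sparse constant genes, Ighv1-22, Iglj3, Igkv1-117, Ighv2-9-1, Xbp1, Sdc1, Tnfrsf17, Cd79a, Ms4a1, Pigr and Ccl28 were named with their values known. Some genes under this rule are not reported here. Sequence upstream of V segments was not analysed here.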

Additional observations from a re-analysis of the deposited data

How the results depend on the processing

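Members called higher numbered 2 with edgeR, 14 with DESeq2, 6 with limma-voom, 4 on library totals, 36 with no filter on low counts, 1 with a minimum count of 30, and 5 to 10 with each library left out, where groups of 2 let 23 to 40 members past the filter. Members called lower numbered 1, but 2 on library totals, 2 with no filter, 0 with a minimum count of 30, and 0 to 1 with each library left out. Library totals moved the median of all genes to −0.28 (log2). With each library left out, log2 ratios of sums ran from 1.21 to 2.56 for heavy constant, 1.06 to 2.33 for heavy variable, 2.02 to 2.86 for kappa constant, 1.86 to 2.30 for kappa variable, −2.98 to −0.10 for lambda constant and −3.39 to 0.25 for lambda variable genes, and without the leading gene of each library heavy constant, lambda constant and lambda variable gave −0.25, 0.040 and 0.68. Share differences ran from 4.16 to 8.61 points (Igha), −44.3 to −18.8 (lambda) and −17.8 to 2.0 (leading heavy segment), and differences in segments detected from 2.67 to 18.2 (heavy) and 11.5 to 25 (kappa). On library totals the plasma cell list had 2 higher and 1 lower, IgA transport 6 lower, macrophage 11 lower, interferon 2 lower and acini 0 higher. With each library left out the passing genes were 3 to 5 higher (plasma cell), 1 to 2 higher (acini), 1 to 2 lower (IgA transport), 1 to 5 lower (Fc receptors), 3 to 9 lower (macrophage) and 0 to 9 lower (interferon). Fold changes that turned with a library left out were those of Igkv10-96 (log2 −0.00022 to 2.80, turned without Eda-/- 1), Iglv1 (−3.95 to 0.13, without WT 2) and Prdm1 (−0.31 to 0.18, without Eda-/- 2 at 0.08 and without WT 3). The cause of these changes was not tested. Same-numbered libraries did not deviate together (r = −0.04, 0.02 and −0.09), so the numbers do not pair them; with a replicate block 3 members were higher and 1 lower, Igkv14-111 being added. Leaving out libraries for the numbers of segments detected was chosen after seeing the data. At 126 to 764 V counts a library, a segment with few counts cannot be compared between libraries.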
